A study of Homo sapiens with 6 samples.

Results

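RNA levels after stimulation of STING1 were compared between cells that kept only the WT allele of the gene (WT/-) and cells that kept only the HAQ allele (HAQ/-), both treated with 2'3'-cGAMP. The comparison sets 1 treated WT/- library against 1 treated HAQ/- library, 2 of the 6 libraries of the series. It covers 15126 of 60498 genes, those whose counts averaged 10 or more per library. Each gene that differed was then placed by the 2 control libraries of the same lines, so that differences already present without cGAMP could be told from those seen only with it.

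All 3 lines derive from SKOV3, established from a human ovarian carcinoma. The unedited parent has both alleles (WT/HAQ). The WT/- and HAQ/- lines are single clones, obtained by limiting dilution after lentiviral delivery of Cas9 with a pair of guides flanking the coding sequence and puromycin selection. A difference between the haplotypes therefore cannot be told apart from a difference between the clones. cGAMP was given at 10 μg/mL for 30 min in a digitonin permeabilization buffer and was followed by 4 h of rest. How the control cells were handled is not described in the sources used here, so the effect of cGAMP cannot be told apart from that of the buffer. With 1 library per line and treatment, a ratio between the treated libraries has no replicate check and no p-value. Its interval is a 95% counting interval (Wilson), which covers counting error only.

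STING is a membrane protein of the endoplasmic reticulum that binds cGAMP, the cyclic dinucleotide made by the DNA sensor cGAS. Bound STING recruits the kinase TBK1, which activates IRF3, and it can also activate NF-kB. IRF3 and NF-kB act together on the gene for interferon beta, whose secreted product signals through its receptor, JAK kinases and STAT factors to switch on interferon-stimulated genes (ISGs). HAQ is a common haplotype of STING1 named after its changed amino acids.

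The regulatory sequence of the genes that separate the classes below is shown first. NF-kB binds sites close to GGGA and TTCC with 2 free bases between them (the kB motif here), and IRF and STAT complexes bind sites close to GAAA and GAAA with 2 free bases between them (the ISRE motif here). The lines hold the 120 bases before the RefSeq start of a gene (GRCh38.p14), written along the strand of the gene, with every match to either motif on either strand in capitals. IFNB1 and CXCL11 were near 0 in both control lines, whereas IL6, TNFAIP3 and CXCL3 differed between the lines with and without cGAMP. These genes are shown because they carry a match to the kB motif, which in CXCL3 lies on both strands at overlapping positions. CXCL10 has no match to either motif in its 120 bases, and the shares over all promoters are given further on.
IFNB1 (chr9:21077943-21078062, minus strand): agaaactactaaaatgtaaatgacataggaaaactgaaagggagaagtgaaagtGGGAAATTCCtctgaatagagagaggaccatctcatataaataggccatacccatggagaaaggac
CXCL11 (chr4:76036071-76036190, minus strand): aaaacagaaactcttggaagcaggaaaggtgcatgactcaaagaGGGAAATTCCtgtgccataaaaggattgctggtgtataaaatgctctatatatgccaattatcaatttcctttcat
IL6 (chr7:22727080-22727199, plus strand): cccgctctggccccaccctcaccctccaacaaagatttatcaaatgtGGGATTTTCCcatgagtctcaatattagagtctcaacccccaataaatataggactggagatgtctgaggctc
TNFAIP3 (chr6:137867139-137867258, plus strand): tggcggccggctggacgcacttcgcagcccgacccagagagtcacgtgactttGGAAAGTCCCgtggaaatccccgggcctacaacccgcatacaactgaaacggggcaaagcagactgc
CXCL3 (chr4:74038690-74038809, minus strand): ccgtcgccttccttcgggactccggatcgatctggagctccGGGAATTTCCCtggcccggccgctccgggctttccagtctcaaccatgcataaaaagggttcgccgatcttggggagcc
The ISGs ISG15, ISG20 and IFIH1 are likewise shown for their matches to the ISRE motif, and IFIH1 also carries a kB match. Among other ISGs, RSAD2, IFIT3, MX1 and SAMD9L hold no match to either motif in this window, and GBP4 holds a kB match alone.
ISG15 (chr1:1013377-1013496, plus strand): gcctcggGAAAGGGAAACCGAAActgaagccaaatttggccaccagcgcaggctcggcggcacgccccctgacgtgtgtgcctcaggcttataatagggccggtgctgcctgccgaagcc
ISG20 (chr15:88638896-88639015, plus strand): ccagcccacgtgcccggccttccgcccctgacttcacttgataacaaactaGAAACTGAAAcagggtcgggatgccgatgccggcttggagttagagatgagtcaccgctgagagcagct
IFIH1 (chr2:162318685-162318804, minus strand): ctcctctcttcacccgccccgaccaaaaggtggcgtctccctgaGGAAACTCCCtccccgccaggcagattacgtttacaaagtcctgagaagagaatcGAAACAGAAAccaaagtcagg
A match is a description of the letters and not a bound site.

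The libraries held 12444791 (WT/- cGAMP) to 17608427 counts (WT/HAQ control). The treated HAQ/- library held 13686475. Carcinoma genes such as ERBB2, KRT8 and KRT18 were among the abundant transcripts of every library, with KRT18 at 3785 normalized counts or more. All 10 carcinoma markers listed were analysed, and 1 of them averaged under 10 counts in the controls. After cGAMP, 2 of the 10 were 2-fold higher in WT/- and 1 in HAQ/-, where 10.7% and 5.43% of all genes were. Their treated ratios ran from -1.71 to 2.84 on the log2 scale. Of the 11 leukocyte markers, CD3D, MS4A1, FCGR3A and NKG7 were at 0 in all 6 libraries and PTPRC reached 2.85. CD68, which many cells carry, was the only one analysed and had a treated ratio of 0.15 on the log2 scale. The fibroblast genes COL1A1, DCN and LUM were present in all libraries, with treated ratios between -0.33 and 0.78. COL3A1 is described below. The 8 fibroblast markers summed to 2231 in treated WT/- and 2213 in treated HAQ/-. Of 6 endothelial markers, CLDN5 was at 0 in all libraries, and the sums were 112 and 37.2, most of it KDR. Their part in the results was not tested. Normalized counts are counts divided by TMM-scaled library sizes. The log2 ratios below are WT/- over HAQ/-, called the treated ratio or the control ratio, with counts under 3 set to 3.

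STING1 itself (chromosome 5, 139475533 to 139482935, minus strand) had normalized counts of 669 and 1780 in control and treated WT/HAQ, 353 and 553 in WT/-, and 213 and 403 in HAQ/-. Both clones lay below the parent in both states. The treated ratio was 0.46 (interval 0.25 to 0.66) and the control ratio 0.73 (0.50 to 0.96), so the transcript of the kept allele was less than 2-fold apart.

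After cGAMP, 1616 genes (10.7% of 15116 with a ratio) were at least 2-fold higher in WT/- and 821 (5.43%) at least 2-fold higher in HAQ/-, together 16.1%. Of the genes higher in WT/-, 1029 (63.7%, or 6.81% of all genes) were already higher by 1.5-fold or more in the control WT/- library. A further 507 (31.4%, or 3.35% of all) differed only after cGAMP, that is by less than 1.5-fold in the controls or with both controls at 3 counts or fewer, and 80 had the opposite sign in the controls. Of the 507 genes, 338 changed their ratio by 2-fold or more between the states, and 135 had a control interval that excluded no difference. Their number followed the control limit, at 245 when the control ratio was read at 1.2-fold and 839 at 2-fold. Of the genes higher in HAQ/-, 567 (69.1%, or 3.75% of all) were already different, 211 (25.7%, or 1.4% of all) differed only after cGAMP and 43 had the opposite control ratio. The counting interval excluded no difference for 992 of 1029, 483 of 507 and 71 of 80 genes toward WT/-, and for 523 of 567, 170 of 211 and 30 of 43 toward HAQ/-. In the controls, 1149 genes (7.62%) were 2-fold higher in WT/- and 761 (5.05%) in HAQ/-. Of these, 736 (64.1%) and 396 (52.0%) were still 2-fold apart in the same direction after cGAMP. Scaling by total counts alone moved the median ratio of all genes from 0.02 to -0.13, and the counts to 1342 higher in WT/- and 1072 higher in HAQ/-, a share of 55.6% toward WT/- in place of 66.3%.

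**Figure D1:**
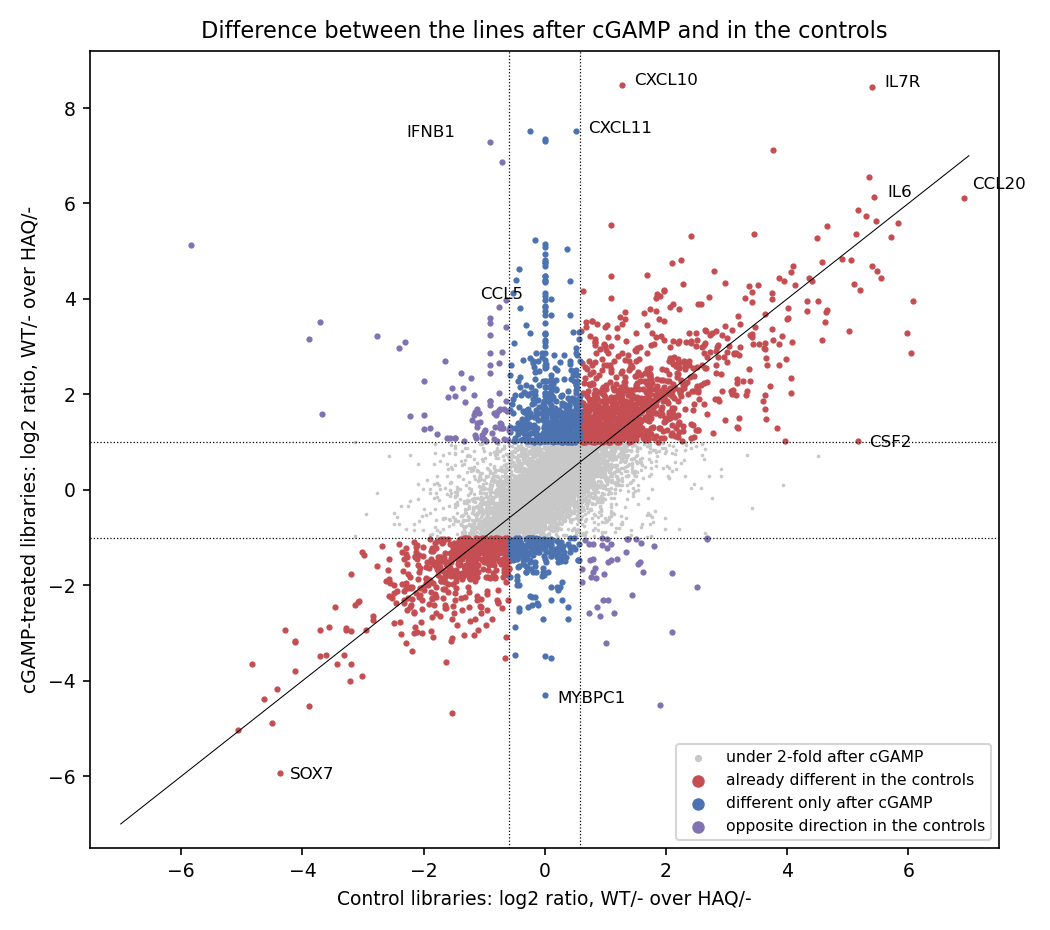
Log2 ratio of WT/- over HAQ/- in the cGAMP-treated libraries (vertical) against the control libraries (horizontal), 1 point per gene. Dotted lines mark 2-fold on the vertical axis and 1.5-fold on the horizontal axis, the solid line marks equal ratios, and genes at 3 counts or fewer in both controls are drawn at 0. IL6 and CCL20 lie near the solid line, whereas IFNB1 and CXCL11 lie far above it.

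The interferon genes were among the widest differences that appeared with cGAMP. IFNB1, which encodes interferon beta (chromosome 9, 21077104 to 21077942), went from 1.87 to 2583 normalized counts in WT/-, from 5.23 to 16.4 in HAQ/- and from 4.42 to 1259 in WT/HAQ. The 3 controls and the treated HAQ/- library were thus all low, and the other two treated libraries were high. The treated ratio was 7.30 (interval 6.57 to 8.02). IFNL1, a type III interferon, went from 3.73 to 2181 in WT/- and from 6.11 to 18.6 in HAQ/-, with a treated ratio of 6.87 (6.19 to 7.56) and with WT/HAQ at 1497 after cGAMP. Both genes fall formally among those with the opposite control ratio, but on 2 against 6 counts for IFNB1 and 4 against 7 for IFNL1, and both control intervals include no difference. The near-identical IFNL2 and IFNL3 share reads. Their sum went from 0.933 to 1056 in WT/- and from 0 to 3.28 in HAQ/-. IFNE went the other way, from 99.9 to 41.4 in WT/- and from 98.6 to 118 in HAQ/-, with a treated ratio of -1.51. IFNA1 was at 23.6 normalized counts or fewer in every library. Of the 12 interferon genes listed, 6 were analysed, and the other 6 had a mean count under 10. IFNB1, IFNL1, IFNL2 and IFNL3 had 7 counts or fewer in every control and passed the filter through the treated WT/- and WT/HAQ libraries, where they are high, so no count or median over the list is given.

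Of the 14 chemokines listed that call T cells and NK cells, 8 were analysed, and the other 6 had a mean count under 10. CXCL9, CXCL10, CXCL11, CX3CL1, CCL4 and CCL22 had 10 counts or fewer in every control and passed the filter through treated libraries, so their number is no result. CXCL10 went from 8.40 to 3549 normalized counts in WT/-, from 3.49 to 9.85 in HAQ/- and from 7.96 to 1967 in WT/HAQ. Its treated ratio of 8.49 (7.56 to 9.42) was the largest among the named genes, a 360-fold difference. By the 1.5-fold rule CXCL10 was already different, but on 9 against 4 control counts, with a control interval of -0.35 to 2.88. CXCL11, a ligand of the same receptor CXCR3, went from 3.73 to 2021 in WT/- and from 1.74 to 10.9 in HAQ/-, with a treated ratio of 7.53 (6.65 to 8.41). CCL5 was the member that HAQ/- cells also made in quantity. It stood at 14.0 and 13.1 in the control clones, at 4335 in treated WT/-, at 273 in treated HAQ/- and at 4384 in treated WT/HAQ, and its treated ratio was 3.99 (3.81 to 4.18). CXCL9 and CCL4 were at 0 in treated HAQ/-, and in treated WT/- they were at least 20.7-fold and 34.2-fold higher against a floor of 3 counts. CX3CL1 had a treated ratio of 1.10 on a control ratio of 0.83, and CXCL16 was the member nearest no difference at 0.39.

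**Figure D2:**
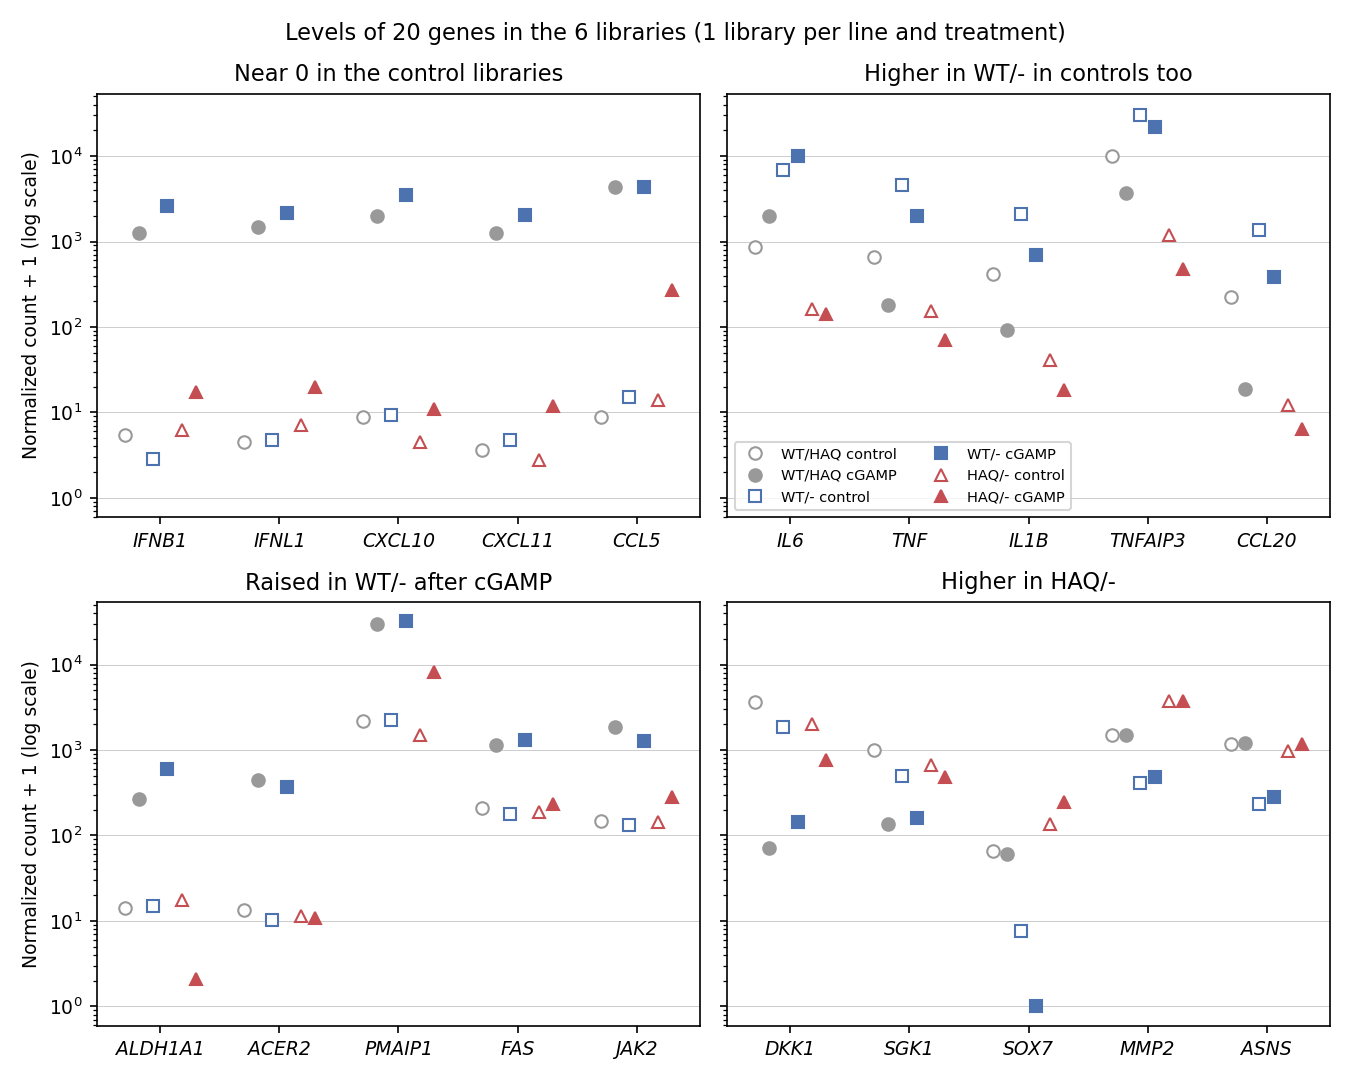
Normalized count plus 1 (log scale) of 20 genes in the 6 libraries, with open symbols for control and filled symbols for cGAMP. In the first panel the treated HAQ/- library stays near the controls for IFNB1, IFNL1, CXCL10 and CXCL11, and in the second the lines are apart in both states.

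Most of the 38 genes of the ISG signature, which code for antiviral proteins and their regulators, were higher with cGAMP in both lines. Between control and cGAMP, 34 members were at least 2-fold higher in WT/- and 31 in HAQ/-, where 6.58% and 3.11% of all genes were. After cGAMP, 20 of the 38 were 2-fold higher in WT/- and 0 in HAQ/-, where 10.7% and 5.43% of all genes were. Of these 20, 16 were already 1.5-fold higher in control WT/- and 4 (ISG20, RSAD2, SAMD9L and DHX58) differed only after cGAMP, as did 6.81% and 3.35% of all genes. The median treated ratio was 1.04 and the median control ratio 0.56, where all genes analysed had 0.02 and -0.0023. The treated ratio exceeded the control ratio in 33 of 38. IFIT2, which binds foreign RNA, went from 467 to 69721 normalized counts in WT/-, from 236 to 16129 in HAQ/- and from 198 to 64282 in WT/HAQ. Its treated ratio was 2.11 (2.09 to 2.14) on a control ratio of 0.99. IFIH1, the RNA sensor MDA5, stood at 9709 in treated WT/- and 1689 in treated HAQ/-, with control levels of 229 and 69.8 and a treated ratio of 2.52. RSAD2, which encodes viperin, had equal levels of 45.7 and 46.2 in the controls and stood at 6498 and 2616 after cGAMP, a treated ratio of 1.31 (1.24 to 1.38). RSAD2 was highest in the treated parent, at 21619. The parent lay above both treated clones for 22 of the 38 members. MX1, a dynamin-like antiviral GTPase, was nearest no difference: 8000 in treated WT/- and 7423 in treated HAQ/-, with 16470 in WT/HAQ. RTP4 was the member whose ratio narrowed by over 2-fold, from 24.3 against 2.62 in the controls to 431 against 152 after cGAMP. The 2.62 in control HAQ/- is at the floor of 3 counts, so the narrowing rests on few counts.

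**Figure D3:**
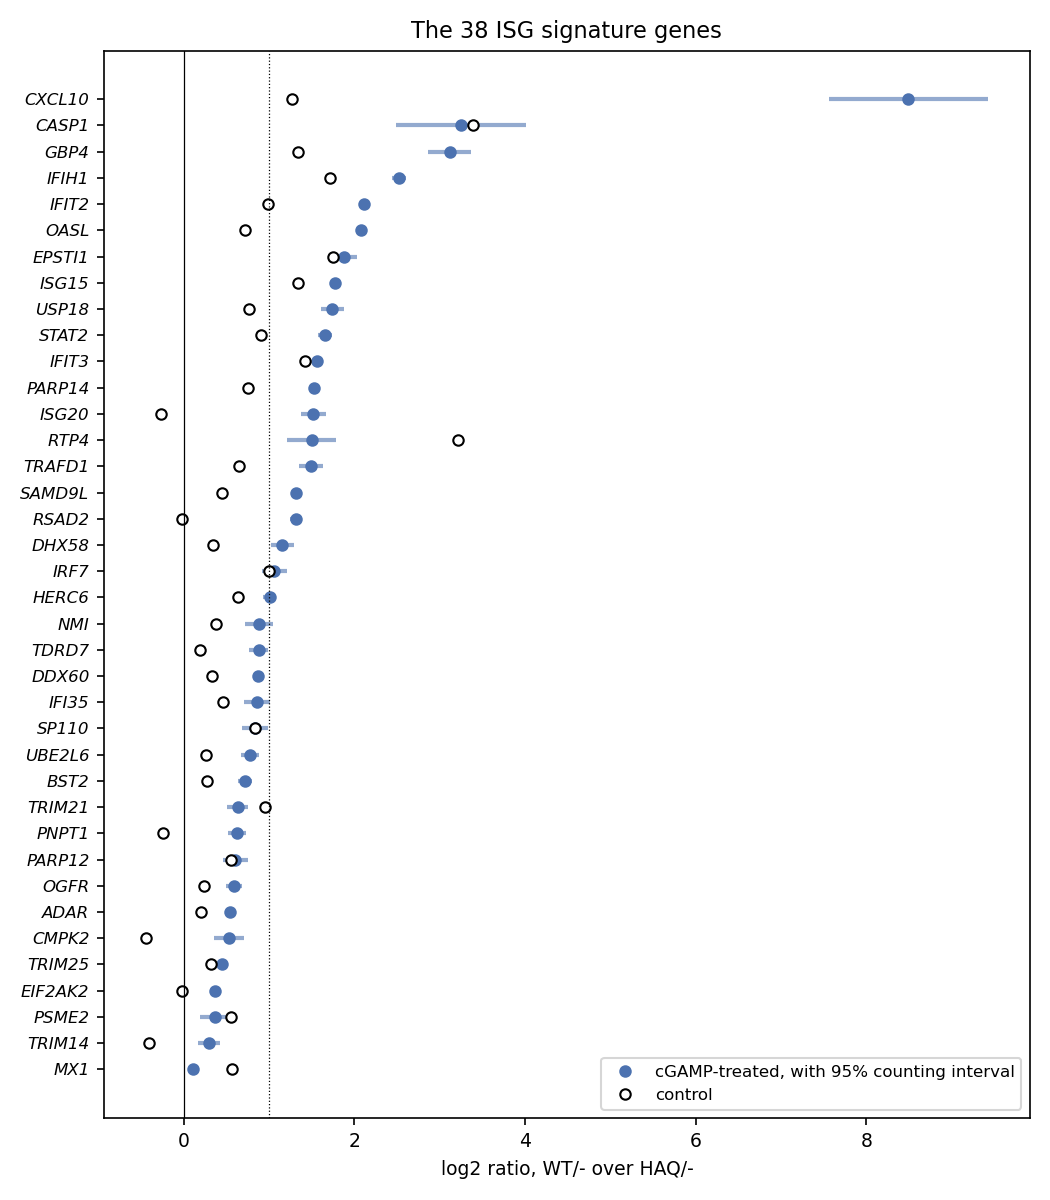
Log2 ratio of WT/- over HAQ/- for each ISG signature gene in the treated libraries (filled, with the 95% counting interval) and the control libraries (open). The dotted line marks 2-fold. All 38 treated ratios lie above 0, from 0.11 for MX1 to 8.49 for CXCL10.

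Among the 38 antiviral effectors listed, which overlap the signature, 17 were 2-fold higher in treated WT/- and 0 in treated HAQ/-, where 10.7% and 5.43% of all genes were. The list had medians of 0.85 treated and 0.49 control. The 7 of them that differed only after cGAMP include ZC3HAV1, the zinc-finger antiviral protein. Its normalized counts were 720 and 714 in the control clones and 31419 and 12657 after cGAMP, and its ratio went from 0.01 to 1.31. The groups that follow are read against the same 10.7% toward WT/-. Of the nucleic acid sensors and adaptors, 8 of 16 were higher in WT/-. AIM2, a sensor of cytosolic DNA, was at 192 against 20.8 after cGAMP, and TREX1, the exonuclease that degrades such DNA, went from equal levels (74.7 and 73.3) to 216 and 87.6. MAVS was nearest no difference at -0.04. Guanylate-binding proteins were higher in 4 of 5, led by GBP4 at 1380 against 159. Of the IRF and STAT factors 8 of 13 were higher, 7 of them already different. IRF1 was 10982 and 1307 in the control clones and 18074 and 4292 after cGAMP, so that its ratio narrowed from 3.07 to 2.07. Among interferon receptors and kinases, 2 of 8 were higher: IFNGR2, apart in both states (1.34 and 1.36), and JAK2. JAK2, the kinase of several cytokine receptors, went from 133 to 1286 in WT/-, from 142 to 280 in HAQ/- and from 145 to 1845 in WT/HAQ, with a treated ratio of 2.20 and a control ratio of -0.09 (-0.41 to 0.23).

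Of 20 MHC class I genes, 4 were 2-fold higher in WT/-, against 10.7% of all genes, and all 4 were already different: TAPBPL (1.82), the peptide transporter TAP1 (1.42) and the immunoproteasome subunits PSMB9 (1.18) and PSMB10 (1.10). All 20 treated ratios were above 0, with a median of 0.74 against 0.42 in the controls, where all genes analysed had 0.02 and -0.0023. TAP1 stood at 1992 and 1122 in the controls and at 8955 and 3352 after cGAMP. Of 11 MHC class II genes only 3 were analysed. CIITA, their master activator, went from 27.1 to 98.8 in WT/- and from 45.4 to 37.2 in HAQ/-, and the protease gene CTSS was 430 and 75 in the controls and 557 and 93 after cGAMP. Of 10 checkpoint ligands, 4 were higher in WT/-. CD274, which encodes PD-L1, went from 109 to 1405 in WT/-, from 47.1 to 201 in HAQ/- and from 158 to 862 in WT/HAQ, a treated ratio of 2.80 (2.58 to 3.03) on a control ratio of 1.21. IDO1 was apart in both states, with ratios of 1.85 and 2.09.

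Genes of cell death differed in part with and in part without cGAMP. Of 18 analysed ligands, receptors and caspases, 13 were 2-fold higher in treated WT/- and 0 in HAQ/-, where 10.7% and 5.43% of all genes were. Of the 13, 7 were already different and 6 differed only after cGAMP, as did 6.81% and 3.35% of all genes. FAS, a death receptor, went from 176 to 1300 in WT/- and from 209 to 1154 in WT/HAQ, and in HAQ/- it was 188 and 231. Its treated ratio was 2.49 (2.28 to 2.71), and the treated HAQ/- library lay near the 3 controls. The BH3-only gene PMAIP1 went from 2260 to 32121 in WT/- and from 1516 to 8223 in HAQ/-. CASP8, BCL2L11 and RIPK1 had treated ratios of 1.08, 1.07 and 1.01. These lie close to the 2-fold limit, and scaling by total counts alone lowered the median treated ratio of the list from 1.24 to 1.09. BBC3, another BH3-only gene, was already apart in the controls (258 against 23.6) and stood at 1302 against 31.7 after cGAMP. TNFRSF10A was nearest no difference at -0.18.

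Other genes with the same shape lie outside immune lists. ALDH1A1, which oxidizes retinaldehyde, went from 14.0 to 602 in WT/-, from 13.3 to 265 in WT/HAQ and from 16.6 to 1.09 in HAQ/-. The last value is 1 count, and the treated ratio, set by the floor of 3 counts, was 7.52 (5.96 to 9.08). ACER2, an alkaline ceramidase, stood near 10 in all controls and in treated HAQ/- (9.85), and at 373 in treated WT/- and 444 in treated WT/HAQ. The sodium channel gene SCN3A was at 327, 9.85 and 279 in treated WT/-, HAQ/- and WT/HAQ, from control values of 5.60, 4.36 and 0. RANBP3L and KCNJ15 were at 89.5 and 114 in treated WT/- against 2.19 and 4.38 in treated HAQ/-. RGS13, a regulator of G-protein signalling, and IRAG2 were at 0 in treated HAQ/- and at 88.2 and 102 in treated WT/-, at least 26.8-fold and 30.9-fold higher against a floor of 3 counts. The near-identical CXorf49 and CXorf49B share reads, and their sum was 116 against 4.38. CEACAM1, an adhesion receptor, went from 2.80 to 86.8 in WT/- and from 4.36 to 5.47 in HAQ/-.

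Over all 507 genes higher in WT/- only after cGAMP, the median treated ratio was 1.43 and the median control ratio 0.18. Of them, 303 were at least 2-fold higher with cGAMP in WT/-, where 6.58% of all genes were. The genes were chosen for a gap between the treated libraries, so a response in WT/- above that in HAQ/- was built in. The excess over 6.58% is therefore no result. The 303 split into 70 that were also 2-fold higher in HAQ/- and 233 that were not. In all, 65 were at least 2-fold lower with cGAMP in HAQ/- and not in WT/-, and 146 moved by less than 2-fold in both. The treated parent lay nearer to WT/- for 376 of the 507 (74.2%) and beyond it for 150. The parent took no part in the ratios but counted in the filter on mean counts, and with the mean taken over the 4 clone libraries it was nearer to WT/- for 356 of 486 (73.3%). Among the 1029 genes already different toward WT/- the parent was nearer to WT/- for 459 (44.6%). Toward HAQ/-, the treated parent was nearer to WT/- for 96 of the 211 genes different only after cGAMP (45.5%). Among the 567 already different toward HAQ/- it was nearer to WT/- for 213 (37.6%).

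**Figure D4:**
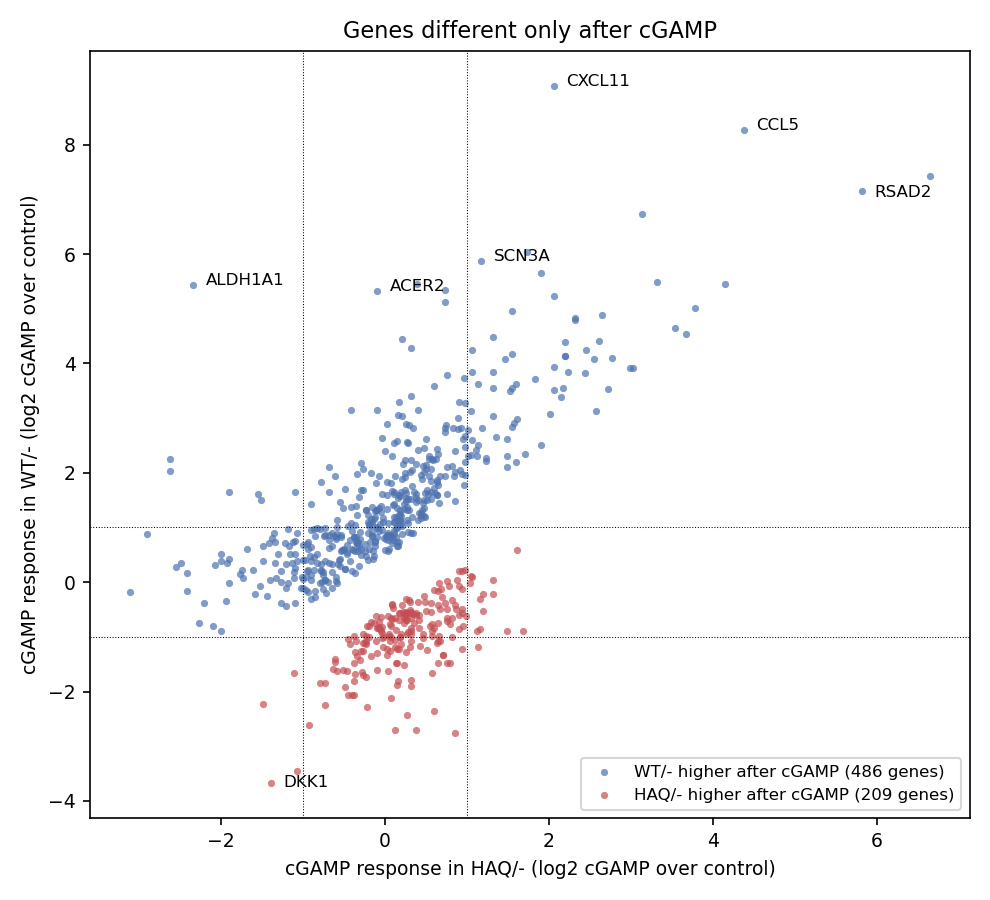
cGAMP response (log2 of cGAMP over control) in WT/- (vertical) against HAQ/- (horizontal) for the 695 genes that differed only after cGAMP and have both responses. Dotted lines mark 2-fold. The 486 genes higher in WT/- lie above the 209 higher in HAQ/- because they were chosen for that difference, and the spread along each axis shows which line moved. ALDH1A1 lies on opposite sides of 0 in the lines, with 1 count in treated HAQ/- set to the floor of 3.

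The NF-kB targets form the other main group, and they were apart in the controls as well. All 20 members were 2-fold higher in treated WT/- and all 20 were already 2-fold higher in control WT/-, where 10.7% and 7.62% of all genes were, with a median treated ratio of 4.41 and a median control ratio of 4.53. None widened by 2-fold and 1 narrowed. The list was chosen with earlier results of these data known, so these counts describe it and are no test. IL6 stood at 6940 normalized counts in control and 9924 in treated WT/-, at 160 and 141 in HAQ/-, and at 851 and 1987 in WT/HAQ. Its treated ratio was 6.14 (5.88 to 6.39) and its control ratio 5.44 (5.23 to 5.65). TNFAIP3, the NF-kB inhibitor A20, was at 30554 and 22054 in WT/-, 1207 and 477 in HAQ/- and 10044 and 3675 in WT/HAQ. TNF was at 4620 and 2010 in WT/-, 154 and 70.1 in HAQ/- and 661 and 178 in WT/HAQ, a treated ratio of 4.84 and a control ratio of 4.90. For these genes the 2 WT/- libraries were the highest, the 2 HAQ/- libraries the lowest, and the parent lay between the clones in each state. It did so for all 20 members in the controls and for 19 after cGAMP. CCL20 had the largest control ratio of the list at 6.92 and a treated ratio of 6.12. CSF2 was the exception, at 284 in control and 6.68 in treated WT/- and at 7.85 and 0 in HAQ/-, so that its treated ratio of 1.02 has an interval of -0.90 to 2.94. With cGAMP, 10 members were at least 2-fold lower in WT/- and 10 in HAQ/-, where 3.48% and 1.94% of all genes were.

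Related groups behaved alike in part. Of 17 immediate-early genes, 12 were 2-fold higher in treated WT/-, against 10.7% of all genes, 10 of them already different, and their ratio widened by 2-fold in 5. ATF3, a stress-induced transcription factor, was 10485 and 2505 in the control clones and 11902 and 835 after cGAMP, with ratios of 2.07 and 3.83. EGR1 went from 19477 to 16052 in WT/- and from 6078 to 2203 in HAQ/-. JUND was nearest no difference at 0.14. Of 17 feedback genes, 8 were higher in WT/- and 2 in HAQ/-, where 10.7% and 5.43% of all genes were. SOCS3, an inhibitor of JAK signalling, was 1606 and 201 in the controls and 3964 and 617 after cGAMP, whereas SOCS2, a feedback inhibitor of growth hormone signalling, was 107 in treated WT/- against 636 in treated HAQ/-, with 177 and 501 in the controls. The largest ratios toward WT/- present in both states outside these lists were those of IL7R, the interleukin-7 receptor (111 to 1146 in WT/-, 2.62 to 2.19 in HAQ/-), RND1 (166 to 919, and 12.2 to 6.57), PTGS2, which encodes the prostaglandin synthase COX-2 (107 to 1344, and 2.62 to 14.2), SAA1 (94.3 to 191, and 0 to 3.28) and NEURL3 (311 to 3270, and 7.85 to 61.3). For IL7R and RND1 the gap was wider with cGAMP, with control ratios of 5.41 and 3.77 and treated ratios of 8.45 and 7.13. For PTGS2 the ratios were 5.36 and 6.56, and the control interval of 3.78 to 6.93, on 3 control counts in HAQ/-, contains the treated ratio. The intervals of IL7R are 3.83 to 6.98 and 6.89 to 10.01, since HAQ/- held 3 and 2 counts of it.

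**Figure D5:**
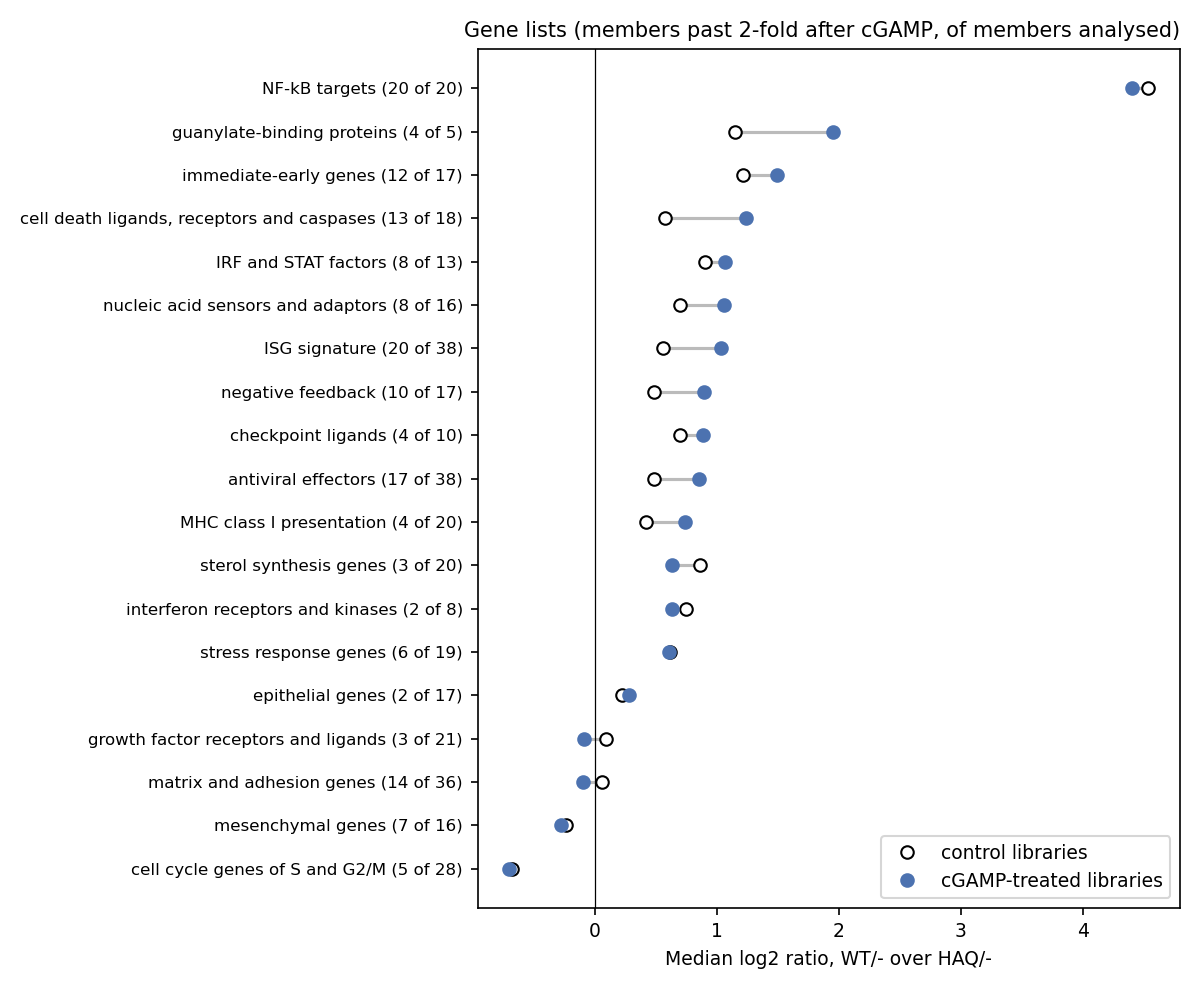
Median log2 ratio of WT/- over HAQ/- for 19 gene lists in the control (open) and treated (filled) libraries, with the number of members past 2-fold after cGAMP of those analysed. The interferon genes and the chemokines for T and NK cells are not drawn. The medians of the NF-kB targets (4.53 and 4.41) and the cell cycle genes (-0.68 and -0.70) lie close together in the 2 states.

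Toward HAQ/-, the genes that differed only after cGAMP had smaller ratios, with a median of -1.24. Of the 211, 86 were at least 2-fold lower with cGAMP in WT/-, where 3.48% of all genes were, and 82 of these were not 2-fold lower in HAQ/-. The genes were chosen for a gap between the treated libraries, so a response in WT/- below that in HAQ/- was built in. The excess over 3.48% is therefore no result. A smaller set of 16 was at least 2-fold higher with cGAMP in HAQ/- and not in WT/-. DKK1, a secreted inhibitor of Wnt signalling, went from 1839 to 144 in WT/-, from 1993 to 764 in HAQ/- and from 3628 to 71.3 in WT/HAQ. The 3 controls and the treated HAQ/- library were high, and the treated ratio was -2.41 (-2.70 to -2.11). SGK1, a serum- and glucocorticoid-regulated kinase, went from 493 to 160 in WT/- and from 660 to 483 in HAQ/-. HEY1, a target of Notch, went from 78.4 to 16.0 and from 87.2 to 75.5, and the adenosine receptor gene ADORA2B from 59.7 to 17.4 and from 80.3 to 101. DACT1, ADRA1B and EBP had treated ratios of -1.99, -1.88 and -1.81 on control ratios of -0.42 to -0.46. MYBPC1, a myosin-binding protein of muscle, had the reverse shape: it was at 1.34 in treated WT/-, at 78.8 in treated HAQ/- and at 61.8 in treated WT/HAQ, with every control under 1. COL3A1, a fibrillar collagen gene, had that shape too, with 0, 44.9 and 48.5, and was at least 11.2-fold higher in treated HAQ/- against a floor of 3 counts.

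Of the genes already different toward HAQ/-, 476 of the 567 moved by less than 2-fold in both lines, as did most genes analysed. With cGAMP, 6.58% of all genes were 2-fold higher and 3.48% lower in WT/-. In HAQ/- the shares were 3.11% and 1.94%. SOX7, a transcription factor, was 6.53 and 0 in WT/- and 135 and 244 in HAQ/-. The small GTPase gene DIRAS1 was 0.933 and 1.34 against 93.3 and 131, C14orf132 was 19.6 and 16.0 against 445 and 471, and the neuronal nitric oxide synthase gene NOS1 was 29.9 and 21.4 against 277 and 343. COL23A1 had a treated ratio of -4.53 on a control ratio of -3.89. KCNK15 held 2 and 3 counts in WT/-, and its intervals were -6.22 to -3.06 in the controls and -5.96 to -2.79 after cGAMP. PTPN20 was at 0 in both WT/- libraries, and HAQ/- was at least 21.5-fold and 18.0-fold higher against the floor of 3 counts. The lists that follow are read against the 10.7% of all genes called toward WT/- and the 5.43% called toward HAQ/-. Their medians are read against 0.02 treated and -0.0023 control over all genes analysed. Of 36 matrix and adhesion genes, 8 were higher in WT/- and 6 in HAQ/-. The gelatinase gene MMP2 was 410 and 488 in WT/- against 3782 and 3776 in HAQ/-, and the collagenase gene MMP1 was 12916 and 13087 against 3385 and 3305. Of 16 mesenchymal genes, 5 were higher in HAQ/-, among them SPARC (927 against 2616 after cGAMP) and VIM (46569 against 101083), and 2 in WT/-, ZEB2 and POSTN. Of 21 growth factor receptors and ligands, ERBB4 and IGF1R were higher in HAQ/- and KIT in WT/-. Of 28 cell cycle genes of S phase and G2/M, 27 had treated ratios below 0, 5 of them past 2-fold (RRM2, CCNE2, PLK1, CDC45 and MKI67). The medians were -0.70 treated and -0.68 control, and 0 of the 28 moved by 2-fold with cGAMP in either line. Of 20 sterol synthesis genes, 19 had treated ratios above 0, with a median of 0.63 against 0.87 in the controls, and EBP was the exception. Of 19 stress genes, 5 were higher in WT/-, led by DDIT3 (1664 against 268), and 1 in HAQ/-, the asparagine synthetase gene ASNS (284 against 1187). Of 17 epithelial genes, 2 were higher in WT/-, ELF3 and CLDN4, a share near the 10.7% of all genes.

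Across the classes of the study's list of pattern recognition receptor genes, calls toward WT/- were 23 of 35 effectors, 13 of 52 sensors, 19 of 87 signal transducers, 7 of 30 regulators, 5 of 16 adaptors, 9 of 17 transcription genes, 0 of 9 accessory molecules and 0 of 2 secondary receptors, where 10.7% of all genes were called. Calls toward HAQ/- were 2 effectors, 1 signal transducer, 1 adaptor and 1 transcription gene, where 5.43% of all genes were. These counts cover analysed members, such as 35 of 75 effectors and 52 of 77 sensors listed, and 7 of the 35 effectors passed the filter only through treated libraries, so the count of effectors is partly fixed by it.

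A test was possible only for the average line difference over control and cGAMP, in edgeR's quasi-likelihood fit of line and treatment on all 6 libraries with 2 residual degrees of freedom. The fit averages the line difference over both states, so a gene that passed need not differ in each of them. The libraries are those that set the classes, so it is no independent check of them. At an adjusted p under 0.05, 1680 genes (11.1%) were higher in WT/- and 1202 (7.95%) in HAQ/-. Scaling by total counts alone turned this balance, with 1249 genes toward WT/- and 2060 toward HAQ/-. Of the genes already different, 750 of 1029 toward WT/- (72.9%) and 376 of 567 toward HAQ/- (66.3%) were among them, and of those different only after cGAMP 39 of 507 (7.69%) and 6 of 211. All 20 NF-kB targets passed, as did 13 of 38 ISG signature genes and 21 of 28 cell cycle genes, the last toward HAQ/-. The NF-kB and cell cycle lists were chosen with earlier results of these data known. For TNF the line difference was 4.90 (SE 0.23, adjusted p = 0.0014), for IL6 5.75 (SE 0.37, adjusted p = 0.0024) and for MMP2 -3.08 (SE 0.11, adjusted p = 0.0014). For JAK2 it was 1.07 (SE 0.66, adjusted p = 0.30) and for STING1 0.60 (SE 0.20, adjusted p = 0.094), neither of which passed. IFNB1 passed with 6.59 (SE 1.03, adjusted p = 0.017) and CXCL11 with 7.18 (SE 0.60, adjusted p = 0.0045), although their control ratios were -0.90 and 0.51 on 6 counts or fewer. Both genes entered the test only through the treated libraries where they are high, so their p-values are no support for a line difference.

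The motifs were then counted in the RefSeq promoters of all genes, 250 bases before to 50 after the start, on both strands. The ISRE motif was in 2.87% of the promoters of analysed genes. It was in 7.03% (23 of 327) for the genes higher in WT/- only after cGAMP, in 6.40% (44 of 687) for those already higher in WT/-, in 0.885% (1 of 113) and 1.40% (5 of 358) for the same classes toward HAQ/-, and in 61.3% (19 of 31) for the ISG signature. The kB motif was in 1.57% of all analysed promoters. It was in 4.66% (32 of 687) for the genes already higher in WT/-, in 0.612% (2 of 327) for those higher only after cGAMP, in 0.279% (1 of 358) and 1.77% (2 of 113) for those higher in HAQ/- already and only after cGAMP, and in 38.9% (7 of 18) for the NF-kB targets. The AP-1 site TGANTCA was in 4.78% of analysed promoters, in 7.65% and 6.55% of those higher in WT/- only after cGAMP and already, and in 6.19% and 8.66% of the same classes toward HAQ/-. These shares are descriptions, since the classes were chosen by the values of the same libraries. Of the genes named further above, CCL5, IFIT2 and DHX58 had no entry among the RefSeq promoters.

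For near-identical genes the split of reads is uncertain. SULT1A3 and SULT1A4 together had a treated ratio of 2.03 although SULT1A3 alone had -1.56. At the edge of the 2-fold limit, LINC01111 and ZNF701 lay just inside and ZBED6 and CYB5A just outside toward WT/-. Toward HAQ/-, PTGR3 and KRT6A lay inside and C5orf34 and RRS1 outside, all equal to 2-fold after rounding.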

How the data were processed

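RNA-seq was measured in 6 libraries of SKOV3 cells, 1 per line and treatment, which the sample labels name. The authors deposited expected counts per gene, which are estimated counts without normalization, for 60498 Ensembl genes. The submitters' processing notes name STAR, RSEM, GRCh38 and hg38; versions and the annotation release are not given in the sources used here. Counts were rounded, and 15126 genes that averaged 10 counts or more per library were kept. Library sizes were TMM-scaled (edgeR 4.0.16, R 4.3.3). Counts under 3 were set to 3, no ratio was taken where both counts were 3 or fewer, and 2-fold was the limit of a call. The control ratio was read at 1.5-fold. Counting intervals are 95% Wilson intervals. Totals of 12444791 to 17608427 set the counting error.

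The members, the gene lists and the tests were chosen with earlier results of these data known. Genes were named by rule: STING1; among protein-coding genes with 50 counts in the higher treated library and an interval that excludes no difference, the 12 and 8 largest toward WT/- and HAQ/- only after cGAMP with a 2-fold change of the ratio, the 8 already different on each side and the 3 with the opposite control ratio; up to 4 members past 2-fold and the member nearest no difference for each list; and 2 genes on each side of the 2-fold limit. Some genes under this rule are not reported here. Other list members and examples in the text were chosen after their values were seen. The line difference was tested by edgeR's quasi-likelihood method with Benjamini-Hochberg adjustment. Alternatives were DESeq2 (1.42.0) size factors and test, total counts, thinning, other floors and filters, other folds, and designs without the parent or the treatment term. Positions are from GENCODE release 44, which holds 14995 of the analysed genes, and sequences are from RefSeq. In simulated data with 200 changed genes among 15126, the line test called 200 of them and 7 unchanged genes. Those data held a fixed spread, no effect of cGAMP and the same change in both WT/- libraries. These rates therefore do not carry over to the calls reported here. With 200 genes changed 4-fold, the 2-fold limit on 1 library per line found all 200, and 192 unchanged genes also passed it by counting error alone. Other steps used Python 3.11.15 with scipy 1.17.1, pandas 2.3.3, matplotlib 3.10.9 and numpy 2.4.6.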

Additional observations from a re-analysis of the deposited data

Results flagged for a closer look

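Among the named genes, 2 moved in opposite directions with cGAMP in the 2 lines, by more than 2-fold each way. The difference was not tested, since each value rests on 1 library per state. ALDH1A1 had a cGAMP response of 5.43 on the log2 scale in WT/- and -2.34 in HAQ/-, a difference of 7.76. The treated HAQ/- library held 1 count against 19 in the control, and that count was set to the floor of 3, so the last 2 values depend on the floor. SMIM11 had -4.16 and 2.24, a difference of -6.40. It shares reads with a near-identical gene, and the sum of both had a treated ratio of -0.22 and a control ratio of -0.46.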

How the results depend on the processing

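With a fold of at least 1.5, 2878 genes were higher in treated WT/- and 1875 in treated HAQ/-, 1202 and 796 of them only after cGAMP, and 990 toward HAQ/- were already different. With a fold of at least 3 the counts were 810 and 308, with 557 and 244 already different and 210 and 44 only after cGAMP. With a mean count of at least 50 they were 937 and 408, with 625 and 339 already different and 286 and 63 only after cGAMP, since fewer genes were tested. With a mean count of at least 1, 801 genes toward WT/- differed only after cGAMP. With a floor of 10 counts, 131 toward HAQ/- did. Reading the control ratio at 1.2-fold gave 245 and 100 genes only after cGAMP, and at 2-fold 839 and 400. An alternative chosen after seeing the data, which also asked that the control counting interval exclude no difference, left 926 and 511 genes already different and put 649 and 278 only after cGAMP. The filter on the 4 clone libraries, used for the count of genes with the parent nearer to WT/-, was also chosen after seeing the data.

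Under total counts only, the medians of the treated ratio were 0.89 for the ISG signature, 0.92 for PRR transcription genes and for IRF and STAT factors, 0.70 for antiviral effectors, 0.75 for negative feedback, 0.59 for MHC class I, 1.80 for guanylate-binding proteins, 1.34 for immediate-early genes, 1.09 for cell death genes, 0.74 for checkpoint ligands, 0.48 for sterol synthesis, 0.46 for stress genes, -0.42 for mesenchymal genes, -0.24 for matrix genes, -0.033 for PRR regulators and -0.10 for PRR accessory molecules. Medians of the interferon genes and the chemokines for T and NK cells were left out, since 4 of 6 and 6 of 8 analysed members passed the filter only through treated libraries. A mean count of at least 50 gave 1.19 for negative feedback, 1.99 for MHC class II, 0.78 for checkpoint ligands, -0.41 for mesenchymal genes and 0.0068 for matrix genes. Of 1096 alternative values of named genes, 69 left the counting interval and 0 changed the sign of a call.

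Without a treatment term, the line test called 369 genes toward WT/- and 341 toward HAQ/-. With total counts only it called 1249 toward WT/- and 2060 toward HAQ/-. No pairing of replicates was possible because each group holds 1 library and the labels give no replicate numbers. The treatment term sets the lines side by side within each state, and the calls without it are those given above. With 1 library per group no replicate could be left out. Depth limits the genes with few control counts, such as IFNB1, IFNL1 and CXCL10, whose class in the controls rests on fewer than 10 counts in each library.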

Other observations

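Genes of chromosome 13 leaned toward WT/-. Over its 264 analysed genes the median treated ratio was 0.44 and the median control ratio 0.31, with 48 genes at least 2-fold higher in treated WT/- and 7 in treated HAQ/-, where 10.7% and 5.43% of all genes were. Over all genes the medians were 0.02 and 0.00. The chromosome was singled out after its values were seen, and the copy number of the clones was not analysed here.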
